A study of Mus musculus with 12 samples.

Results

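The nervous system genes described here are 28 genes that mark neurons, sympathetic and chromaffin cells, neural crest and glia, read in whole fetal testes of mice lacking Dmrt1. They were chosen by name, to ask whether knockout testes carry signs of neural differentiation or of attached sympathetic tissue, and every probe set that the platform annotation gives to 1 of these genes alone was taken. There are 68 such probe sets, out of 34945 probe sets for 18193 genes on the array. The genes encode neuronal tubulins, neurofilaments and growth cone proteins (Tubb3, Stmn2, Stmn3, Map2, Nefl, Nefm, Ina, Gap43, Dcx, Dpysl3), synaptic and vesicle proteins (Snap25, Syt1, Syn1, Ap3b2), neuronal RNA-binding proteins and a ubiquitin hydrolase (Elavl3, Elavl4, Uchl1), adhesion molecules (Ncam1, L1cam, Nfasc), catecholamine enzymes and granins (Th, Dbh, Chga, Chgb), and markers of neural crest and glia (Ngfr, Sox10, S100b, Gfap).

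Dmrt1 encodes a DM domain transcription factor of germ cells and Sertoli cells, and the series compared its loss in 2 mouse strains. Testes were labelled E15.5, a day of embryonic development, and 12 Affymetrix arrays fell into 4 groups of 3: 129Sv Dmrt1 knockout, 129Sv wild type, B6 Dmrt1 knockout and B6 wild type. The series text speaks of conditional removal, the sample labels name no Cre driver or floxed allele, and the growth protocol gives P28 for the embryos; the sample labels were followed. Nothing in the labels says that the 3 samples of a group came from separate animals, so the spread behind the p-values is that of samples and may be technical.

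Neurons extend axons and dendrites whose shape depends on a neuron-enriched tubulin, on neurofilaments and on growth cone proteins, and they communicate through vesicles that these genes help to load, dock and fuse. Sympathetic neurons and the chromaffin cells of the adrenal medulla derive from the neural crest and make catecholamines in successive steps, in which tyrosine hydroxylase (Th) acts first and dopamine beta-hydroxylase (Dbh) makes noradrenaline. Several genes of this kind are also used outside the nervous system: Uchl1 is a well known protein of mouse gonocytes and spermatogonia, and Ncam1 and Ngfr occur in gonadal somatic cells.

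All values are intensities on a linear scale, normalised by the authors with GCRMA; an intensity of 16 (log2 of 4) was used as the lowest level that carries signal. Median intensities of the arrays lay between 17.3 and 19, and arrays of a group correlated with r of 0.966 to 0.996 over the tested probe sets. Dmrt1 itself had 173, 145 and 182 in 129Sv knockout testes against 1183, 924 and 1014 in 129Sv wild type, and 86.4, 64.0 and 72.9 in B6 knockout testes against 795, 1092 and 1066 in B6 wild type (replicates 1 to 3 in this order, here and throughout). The Actb ratio (3′ over 5′ probe set, a measure of RNA integrity) was 6.30 in B6 knockout replicate 3 and 5.24 in 129Sv knockout replicate 1, and 1.99 to 3.91 on the other arrays. The title number before the strain was 7 for all 129Sv knockout arrays and for 129Sv wild-type replicate 2, and 11 for the other 129Sv wild-type arrays. Its meaning is not given, so in 129Sv it can be told apart from genotype only through that 1 wild-type array. As a covariate it entered as a mark of the arrays numbered 11, so 129Sv wild type was then represented by replicate 2 alone. A call lost with this covariate therefore rests on 1 wild-type array and does not show an effect of the number.

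Of the 28 genes, 17 reached 16 in at least 3 arrays through their brightest probe set and were tested, and 11 were not. In 129Sv knockout testes 4 of the 17 were higher than in wild type (Ap3b2, Nfasc, Th and S100b) and 1 was lower (L1cam), by limma with Benjamini-Hochberg adjustment over 21900 probe sets. Over all 12726 genes tested, 3.5% were higher and 3.66% were lower. In B6 knockout testes 4 of the 17 were higher (Ap3b2, Nfasc, Th and Tubb3) and 3 were lower (L1cam, Uchl1 and Syn1), where 1.65% of all tested genes were higher and 4.53% were lower. Th reached the filter through the 129Sv knockout arrays alone and S100b mainly through them, and all B6 values of Th lay under 16. A count over the tested members is thus not a count over all of them. Counts that include Th or S100b cannot be weighed against the shares over all genes. The median log2 difference over all 28 was 0.072 in 129Sv and 0.098 in B6, beside -0.00045 and 0.044 over all 18193 genes. Knockout arrays lay wholly above wild type for 6 of the 28 in 129Sv and for 7 in B6, where 13.1% and 12.5% of all genes did so. They lay wholly below for 5 in each strain, where 14.2% of all genes did so in 129Sv and 11.5% in B6. Tubb3, Ap3b2, Nfasc, Th and S100b were above in both strains, and L1cam, Uchl1, Snap25 and Nefm were below in both. Snap25 and Nefm lay around or under 16 throughout, as did Th and S100b in B6. The share of all genes lying on the same side in both strains was not computed. With 3 arrays against 3, an exact permutation test of a single gene cannot give a two-sided p below 0.1.

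**Figure D1:**
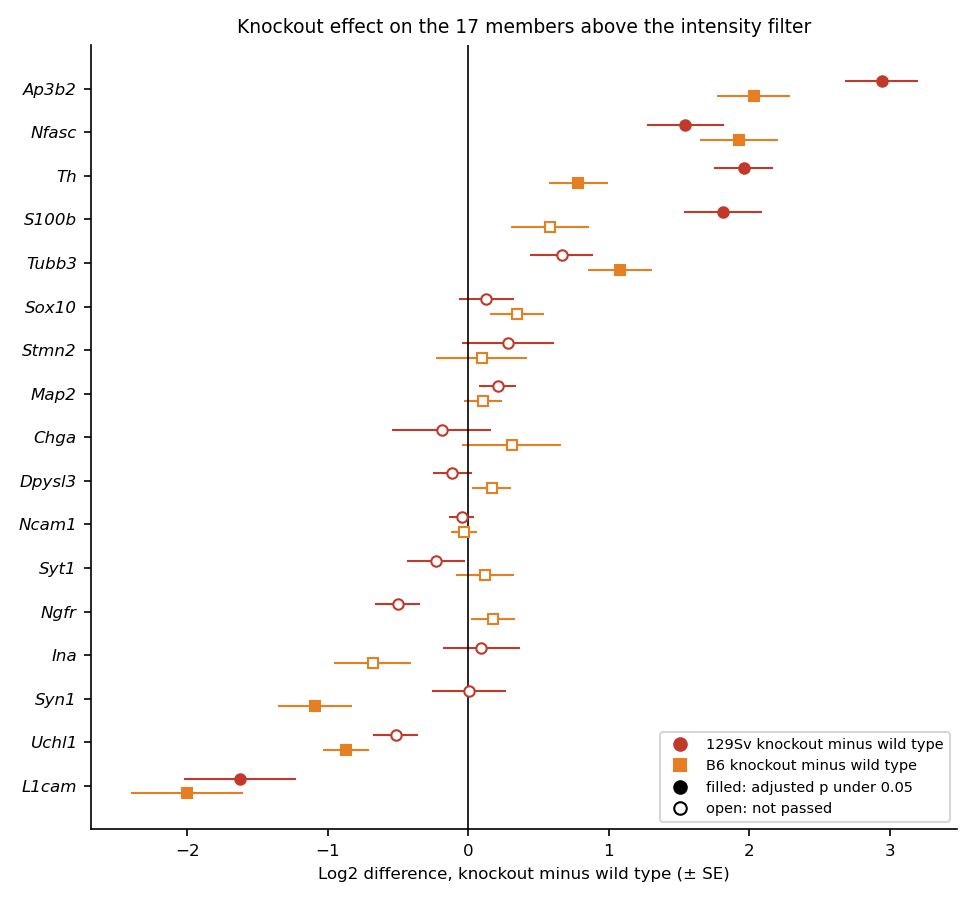
Log2 difference of knockout minus wild type (x axis, with standard error) for the 17 members above the intensity filter, in 129Sv (circles) and B6 (squares), ordered by their mean effect; filled symbols passed an adjusted p of 0.05. Ap3b2 lies farthest to the right in both strains, at 2.94 in 129Sv and 2.03 in B6, and L1cam farthest to the left, at -1.63 in 129Sv and -2.0 in B6.

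Ap3b2 had the largest knockout effect of the tested members. It encodes the beta subunit of the neuronal form of AP-3, an adaptor complex that sorts cargo into synaptic vesicles and related organelles. Its intensity was 154, 162 and 138 in 129Sv knockout testes, against 17.9, 23.5 and 18.1 in 129Sv wild type. It was 90.6, 103 and 52.0 in B6 knockout testes, against 19.8, 23.8 and 15.2 in B6 wild type. Every knockout array thus lay above every wild-type array, and wild-type testes sat close to the floor in both strains. The group means were 151 ± 12.2 in 129Sv knockout and 19.8 ± 3.19 in 129Sv wild type, and 81.9 ± 26.6 in B6 knockout and 19.6 ± 4.32 in B6 wild type (SD, n = 3 each). Ap3b2 rose 7.68-fold in 129Sv (log2 difference 2.94 ± 0.26 (SE), limma adjusted p = 1.67e-05) and 4.08-fold in B6 (2.03 ± 0.26, adjusted p = 0.000459). The difference of 0.91 ± 0.36 between these effects did not pass (adjusted p = 0.295). The 129Sv wild-type array that shares its title number with the knockouts had 23.5, and B6 knockout replicate 3, with the highest Actb ratio, had the lowest knockout value. A second probe set stayed at 3 to 4 on all arrays. The other AP-3 subunits measured, 6 in number, were bright in all groups. None of the 6 passed in either strain, and at an unadjusted p under 0.05 there were 0 in 129Sv and 2 in B6. Of all 12726 genes tested, 2645 in 129Sv and 3088 in B6 had such a p. Ap3b1, the ubiquitous counterpart of Ap3b2, had 714, 531 and 780 in 129Sv knockout testes against 755, 862 and 685 in 129Sv wild type (log2 difference -0.20, adjusted p = 0.57), and -0.02 in B6 (adjusted p = 0.952).

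The RefSeq window from 250 bases before to 50 bases after the start of Ap3b2 is shown because this gene moved most. It is at chr7:81493876-81494175 on the minus strand (GRCm38.p6), a build that the deposited files do not name. None of the letters searched, ACANTGT (a core of the DMRT1 site), CAGCACC and GGACAGC (the left and right parts of RE1, the element bound by the neuronal repressor REST) and TGACGTC (the cyclic AMP response element), is in this window on either strand, so all of it is in lower case:
Ap3b2: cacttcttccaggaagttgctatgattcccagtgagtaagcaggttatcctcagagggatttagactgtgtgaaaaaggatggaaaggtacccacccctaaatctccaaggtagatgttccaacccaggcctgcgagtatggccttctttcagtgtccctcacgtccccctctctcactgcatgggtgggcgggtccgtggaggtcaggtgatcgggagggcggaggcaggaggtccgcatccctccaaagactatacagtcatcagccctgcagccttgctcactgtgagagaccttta

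Nfasc encodes neurofascin, an adhesion molecule that organises the axon initial segment and the nodes of Ranvier. Its brightest probe set had 120, 95.2 and 99.4 in 129Sv knockout testes, against 28.9, 47.0 and 33.9 in 129Sv wild type. In B6 it had 74.2, 81.0 and 161 in knockout testes, against 23.4, 27.4 and 27.5 in wild type. The groups did not overlap in either strain, and B6 knockout replicate 3 stood well above the other B6 knockouts. By this probe set Nfasc rose 2.91-fold in 129Sv (log2 difference 1.54 ± 0.28, adjusted p = 0.00399) and 3.80-fold in B6 (1.93 ± 0.28, adjusted p = 0.00115). The wild-type array with title number 7 was the highest wild type. With the title number as a covariate, which leaves that array as the only 129Sv wild type compared, the 129Sv difference was 1.15.

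The probe sets of Nfasc disagreed. The second probe set had 41.1, 29.2 and 46.2 in 129Sv knockout testes, against 40.7, 71.3 and 51.9 in 129Sv wild type. It had 13.1, 17 and 12.3 in B6 knockout testes, against 17.6, 25.2 and 43.5 in B6 wild type. The arrays overlapped in 129Sv and lay below wild type in B6, the opposite side from the first probe set, without passing the test (log2 difference -0.48 ± 0.32, adjusted p = 0.478 in 129Sv; -0.94 ± 0.32, adjusted p = 0.104 in B6). The remaining one was under 16 on every array. When the probe sets of a gene were averaged before the fit, Nfasc no longer passed (0.42, adjusted p = 0.184 in 129Sv; 0.38, adjusted p = 0.211 in B6), so its call belongs to the brightest probe set. Among 7 measured partners of neurofascin, 5 were tested. Scn8a, a voltage-gated sodium channel of nodes, fell at least 1.77-fold in 129Sv knockout testes (adjusted p = 0.00668), a call lost with the title number as covariate (-1.12, adjusted p = 0.196). Ank3, the ankyrin that anchors neurofascin at the initial segment, rose 1.69-fold in B6 knockout testes (adjusted p = 0.0148), with 87.7, 85.5 and 106 against 56.2, 58.5 and 50.2 in B6 wild type, a call lost without B6 wild-type replicate 3 and with the mean of its probe sets (0.35, adjusted p = 0.0957).

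**Figure D2:**
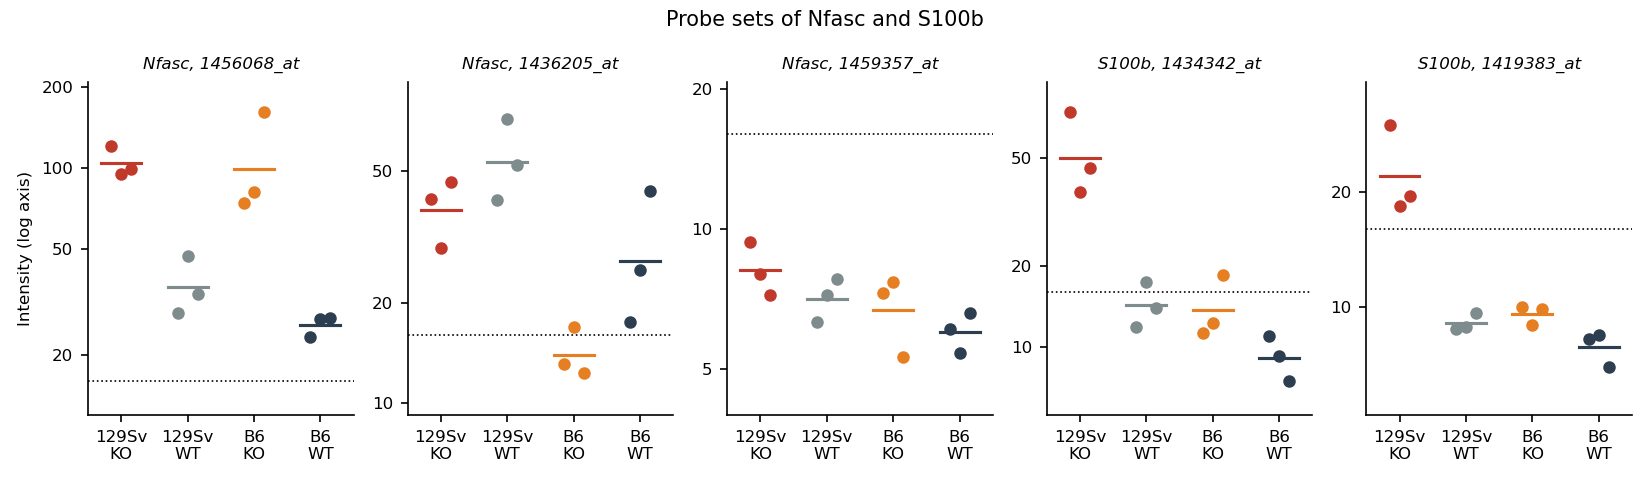
Intensity (log axis) of each array for 3 probe sets of Nfasc and 2 of S100b, with the geometric mean of each group as a bar and the floor of 16 as a dotted line. The brightest probe set of Nfasc, on the left, is higher in knockout than in wild type in both strains, the next one is not, and both S100b probe sets exceed the floor on all 3 arrays of 129Sv knockout testes and of no other group.

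Tubb3, the beta-tubulin isotype by which young neurons are commonly recognised, had 139, 94.9 and 147 in 129Sv knockout testes, against 83.5, 88.6 and 66.1 in 129Sv wild type. In B6 it had 191, 185 and 228 in knockout testes, against 72.8, 121 and 97.6 in wild type. The groups did not overlap in either strain, and B6 knockouts were the brightest of all. Tubb3 rose 2.11-fold in B6 (log2 difference 1.08 ± 0.23, adjusted p = 0.0136). In 129Sv the difference of 0.66 ± 0.23 (1.58-fold) did not pass (adjusted p = 0.114), and the effects were not shown to differ (-0.42, adjusted p = 0.575). Over both strains together the mean effect was 0.87 ± 0.16 (adjusted p = 0.00264). Without B6 wild-type replicate 3 the B6 call was lost at almost the same size (1.1, adjusted p = 0.0554).

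The window of Tubb3 at chr8:123411303-123411602 on the plus strand is shown because it was the 1 member promoter with letters of both RE1 parts, which capitals mark. Both matches are on the minus strand, the left part before the start of the gene and the right part after it. Read along that strand, the right part comes first, so they are separate matches and not a left part followed by a right part. The share of windows holding both parts was not computed, and binding of REST was not tested. Of 32851 windows of the same length, 7.14% hold the left part and 6.56% the right part on either strand:
Tubb3: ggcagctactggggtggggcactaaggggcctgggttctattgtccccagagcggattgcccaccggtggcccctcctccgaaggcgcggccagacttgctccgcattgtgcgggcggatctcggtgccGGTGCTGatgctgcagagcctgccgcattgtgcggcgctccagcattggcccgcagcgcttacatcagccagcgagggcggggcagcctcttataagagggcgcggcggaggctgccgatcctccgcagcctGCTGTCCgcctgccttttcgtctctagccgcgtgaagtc
Of 27 windows for 20 members, CAGCACC was in those of Chgb, Syn1 and Tubb3, and GGACAGC in those of Map2 and Tubb3. ACANTGT was in 1 of the 27 (3.7%), that of Elavl4, beside 7.54% of all windows. The median GC content was 55.7% in member windows and 52.7% in all. Rest itself was bright on every array and did not pass (log2 difference 0.19, adjusted p = 0.414 in 129Sv; 0.08, adjusted p = 0.68 in B6). Among 10 genes for REST and its corepressors, 1 passed in 129Sv, Sin3a, which rose 1.70-fold (adjusted p = 0.00811), a call lost without 129Sv wild-type replicate 3 and with the title number as covariate (0.53, adjusted p = 0.261). None of the 10 passed in B6. At an unadjusted p under 0.05 there were 3 in 129Sv and 1 in B6, beside 2645 and 3088 of all 12726 genes tested. For the mean effect 2 passed (Sin3a and Hdac1, both higher).

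Th, which encodes tyrosine hydroxylase, the rate-limiting enzyme of catecholamine synthesis, had 42.6, 30.0 and 28.8 in 129Sv knockout testes, against 9.90, 9.00 and 7.00 in 129Sv wild type. Only the 129Sv knockout arrays exceeded 16. Th rose at least 2.08-fold there, measured against the floor (fitted log2 difference 1.96 ± 0.21, adjusted p = 8.33e-05). In B6, knockout testes had 12.3, 12.6 and 12.8, against 7.20, 8.20 and 6.70 in wild type. These arrays did not overlap, but all lay under the floor, so no fold is given; the difference of 0.78 ± 0.21 passed narrowly (adjusted p = 0.0483) and was lost under 18 of 26 alternatives. With values under 16 raised to 16 it was 0. The effects in 129Sv and B6 differed by 1.18 ± 0.30, with an adjusted p of 0.113 that missed the threshold.

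Dbh, the next noradrenergic marker of the set, stayed between 5.4 and 6.6 on all arrays, and Chgb, a granin of secretory vesicles, between 5.4 and 9.4. Chga, the other granin, had 29.1, 27.9 and 40.4 in 129Sv knockout testes against 33.9, 42.9 and 33.5 in 129Sv wild type. It had 12.2, 17.6 and 36.7 in B6 knockout testes, against 11.2, 16.9 and 22.1 in B6 wild type. Its arrays overlapped in both strains and it did not pass (log2 difference -0.19, adjusted p = 0.853 in 129Sv; 0.31, adjusted p = 0.623 in B6). The rise of Th in 129Sv was thus measured with Dbh and Chgb under the floor. The Th window at chr7:142899946-142900245 on the minus strand is shown because it holds TGACGTCA, given in capitals, which contains the response element letters TGACGTC. These are found in 3.21% of all windows on either strand, and in those of Chgb, Syn1 and Th among members:
Th: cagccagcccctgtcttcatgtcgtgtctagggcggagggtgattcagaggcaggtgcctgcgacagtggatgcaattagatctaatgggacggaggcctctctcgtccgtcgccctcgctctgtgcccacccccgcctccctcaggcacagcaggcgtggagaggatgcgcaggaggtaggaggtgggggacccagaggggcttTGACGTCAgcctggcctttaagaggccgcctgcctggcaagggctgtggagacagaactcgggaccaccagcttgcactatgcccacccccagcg

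Among 17 other measured genes of sympathetic and chromaffin cells, 10 were tested. Over all tested genes 3.5% were higher and 3.66% lower in 129Sv, and 1.65% were higher and 4.53% lower in B6. In 129Sv knockout testes 1 of the 10 rose: Slc6a2, the noradrenaline transporter, had 29.2, 35.7 and 25.6, against 10.6, 8.60 and 11.4 in 129Sv wild type (at least 1.87-fold, log2 difference 1.56 ± 0.20, adjusted p = 0.000415). The other 9 arrays were under 16, so Slc6a2 reached the filter through the 129Sv knockout arrays alone. The count of 1 cannot be weighed against the share over all genes. In B6 Slc6a2 lay between 5.1 and 6.7 on every array, with no difference (-0.05, adjusted p = 0.906). In B6 knockout testes 2 of the 10 fell: Isl1, a transcription factor of sympathetic neurons among other cells, by 3.36-fold (log2 difference -1.75, adjusted p = 0.0314), and Cyb561, a cytochrome of chromaffin vesicles, by 1.88-fold (-0.91, adjusted p = 0.0126). The Isl1 call was lost without B6 knockout replicate 1 or 2 or wild-type replicate 2 or 3, and the Cyb561 call without B6 wild-type replicate 2 or 3. Hand2, Ddc, Slc18a2, Pnmt and Npy did not pass in either strain. Gata3, Insm1, Stmn4, Cartpt and Scg2 were under 16 on every array. The median difference of the 10 was -0.17 in 129Sv and -0.14 in B6, beside -0.0062 and 0.032 over all tested genes. The summed level of the 17 was 973 to 1332 in 129Sv knockout testes and 1303 to 1595 in 129Sv wild type, and 934 to 1330 in B6 knockout testes and 794 to 1135 in B6 wild type.

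S100b, a calcium-binding protein of Schwann cells and astrocytes, had 73.4, 37.4 and 45.6 in 129Sv knockout testes, against 11.9, 17.4 and 14.0 in 129Sv wild type by its brighter probe set. In B6 it had 11.3, 12.3 and 18.4 in knockout testes, against 11.0, 9.30 and 7.50 in wild type. All 3 129Sv knockout arrays stood above the floor, as did 129Sv wild-type replicate 2 and B6 knockout replicate 3 by little. S100b rose at least 3.13-fold in 129Sv (log2 difference 1.81 ± 0.28, adjusted p = 0.00149), and the B6 difference of 0.58 ± 0.28 did not pass (adjusted p = 0.236). The dimmer probe set had 29.8, 18.4 and 19.5 in 129Sv knockout testes, against 8.80, 8.90 and 9.70 in 129Sv wild type (at least 1.38-fold, log2 difference 1.27 ± 0.21, adjusted p = 0.00237). This probe set reached the filter through the 129Sv knockout arrays alone, and its call was lost with values under 16 raised to 16 (0.46, adjusted p = 0.109). By the brighter probe set the effects in 129Sv and B6 differed by 1.23 ± 0.40, which did not pass (adjusted p = 0.199). The highest value was on 129Sv knockout replicate 1, the array of second highest Actb ratio, and the difference was 1.53 once the title number entered as a covariate (adjusted p = 0.0934). The S100b window at chr10:76253586-76253885 on the plus strand is shown beside that of Th, as the other member with all 3 arrays above the floor in 129Sv knockout testes and in no other group, and holds none of the letters searched:
S100b: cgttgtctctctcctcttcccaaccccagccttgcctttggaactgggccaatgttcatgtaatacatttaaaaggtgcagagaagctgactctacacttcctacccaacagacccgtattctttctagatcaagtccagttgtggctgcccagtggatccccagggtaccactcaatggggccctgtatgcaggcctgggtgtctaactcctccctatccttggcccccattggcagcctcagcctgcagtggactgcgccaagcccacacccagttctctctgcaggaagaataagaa

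Other markers of neural crest and glia did not rise with S100b. Sox10, the transcription factor of neural crest and its glia, had 138, 91.0 and 142 in 129Sv knockout testes against 122, 117 and 96.2 in 129Sv wild type. It had 82.9, 75.7 and 71.0 in B6 knockout testes against 61.6, 61.9 and 56.9 in B6 wild type. The B6 arrays did not overlap, yet neither difference passed (0.13, adjusted p = 0.814 in 129Sv; 0.35, adjusted p = 0.302 in B6). Ngfr, the low-affinity neurotrophin receptor, had 481, 401 and 438 in 129Sv knockout testes against 709, 587 and 578 in 129Sv wild type. All 3 lay below wild type without passing (-0.50 ± 0.16, adjusted p = 0.0901), and in B6 the arrays overlapped (0.17, adjusted p = 0.527). Gfap, the intermediate filament of astrocytes, stayed between 4.6 and 6.7.

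Of 17 other measured genes of glia and neural crest, 9 were tested and none rose in either strain. Over all tested genes 3.5% were higher and 3.66% lower in 129Sv, and 1.65% were higher and 4.53% lower in B6. Egr2, a regulator of Schwann cell myelination, fell in both, 2.93-fold in 129Sv (adjusted p = 0.0107) and at least 2.58-fold in B6 (adjusted p = 0.0184). Tfap2a, a neural crest transcription factor, fell at least 1.07-fold in B6 (log2 difference -2.03, adjusted p = 0.00196), a call lost with values under 16 raised to 16 (-0.21, adjusted p = 0.498). The Egr2 call was lost without knockout replicate 2 or wild-type replicate 1 in 129Sv, with the title number as covariate there (adjusted p = 0.126), and without wild-type replicate 2 or 3 in B6. Foxd3, Tfap2b, Cdh19, Gfra3, Aqp4, Mag, Mog and Pax3 were under 16 on every array. The median difference of the 9 was 0.03 in 129Sv and -0.15 in B6. Their list's summed level overlapped between knockout and wild type in both strains, at 6863 to 7302 and 6927 to 7065 in 129Sv, and at 6972 to 8073 and 7144 to 7327 in B6.

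**Figure D3:**
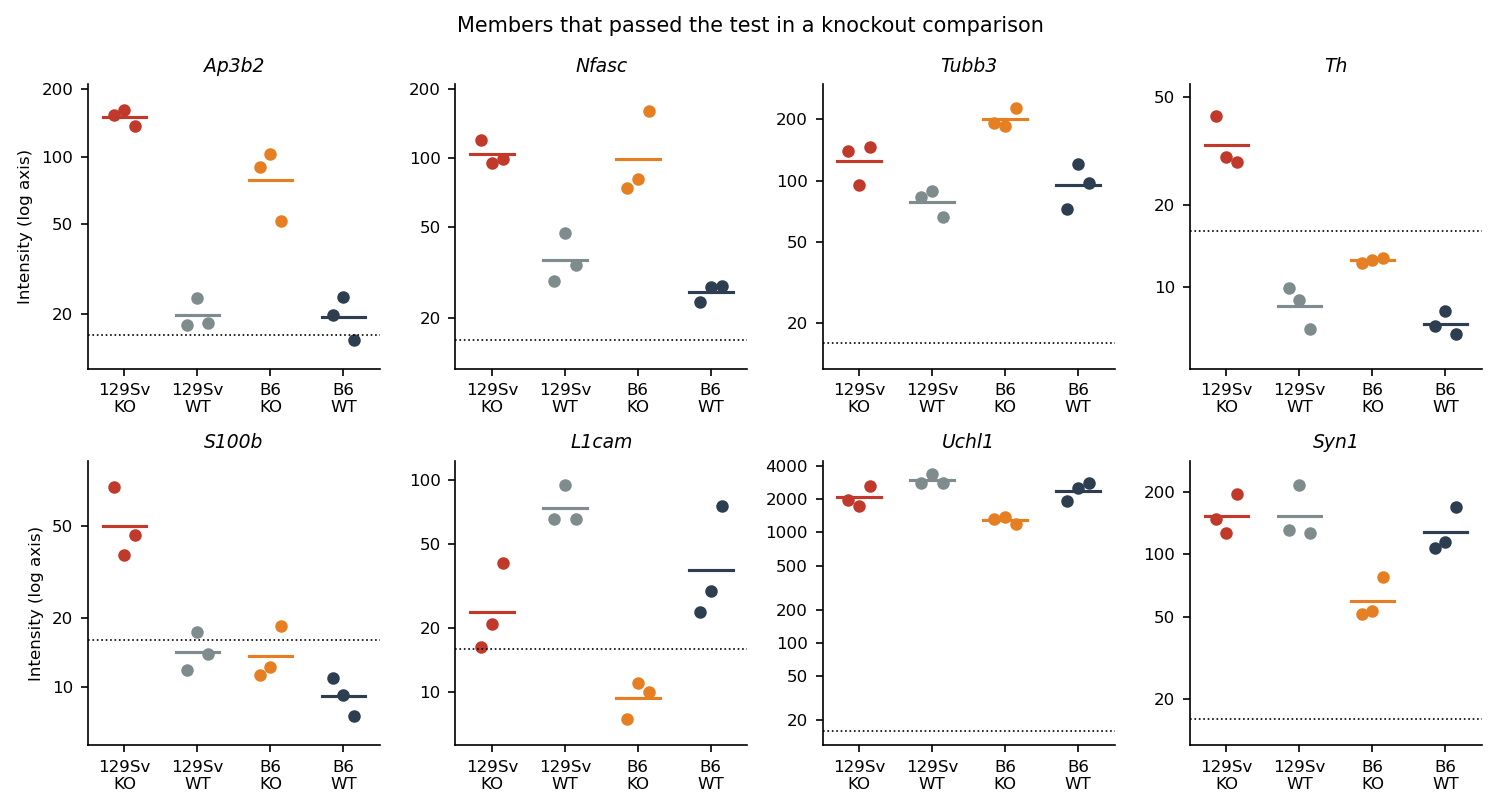
Intensity (log axis) on each of the 12 arrays for the 8 members that passed in a knockout comparison, with the geometric mean of each group as a bar and the floor of 16 as a dotted line. Ap3b2, Nfasc and Tubb3 are higher on every knockout array than on the wild-type arrays of its strain, Th and S100b exceed the floor on all 3 arrays only in 129Sv knockout testes, and L1cam and Uchl1 are lower on every knockout array.

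L1cam, an adhesion molecule of growing axons that is also known from migrating primordial germ cells of the mouse, had 16.3, 20.8 and 40.4 in 129Sv knockout testes, against 65.3, 94.3 and 65.5 in 129Sv wild type. In B6 it had 7.50, 11.0 and 10.0 in knockout testes, against 23.7, 29.9 and 75 in wild type. The groups did not overlap, and knockout replicate 3 in 129Sv and wild-type replicate 3 in B6 stood above their groups. L1cam fell 3.08-fold in 129Sv (log2 difference -1.63 ± 0.40, adjusted p = 0.0281). It fell at least 2.35-fold in B6 (-2.0 ± 0.40, adjusted p = 0.0104). Its mean effect was -1.81 ± 0.28 (adjusted p = 0.000817). With values under 16 raised to 16 the B6 difference was -1.23 and no longer passed (adjusted p = 0.0997). The 129Sv call was lost without any 1 of knockout replicates 1 and 2 and wild-type replicates 1, 2 and 3, with differences of -1.35 to -1.71 and adjusted p of 0.0725 to 0.133, and also with the title number as covariate.

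Uchl1, the ubiquitin hydrolase of neurons and of male germ cells, had 1976, 1722 and 2641 in 129Sv knockout testes, against 2782, 3388 and 2803 in 129Sv wild type. In B6 it had 1311, 1361 and 1198 in knockout testes, against 1903, 2488 and 2776 in wild type. It was lower on every knockout array, fell 1.83-fold in B6 (-0.87 ± 0.16, adjusted p = 0.0065), and in 129Sv the difference of -0.52 ± 0.16 did not pass (adjusted p = 0.0863). Syn1, a phosphoprotein of synaptic vesicles, had 51.2, 53.4 and 78.0 in B6 knockout testes against 107, 115 and 169 in B6 wild type. It fell 2.13-fold there (-1.09 ± 0.26, adjusted p = 0.0292). In 129Sv its knockout values of 147, 126 and 195 overlapped the wild-type values of 131, 217 and 127 (0.00 ± 0.26, adjusted p = 0.998), and the effects differed by 1.1 ± 0.37 without passing (adjusted p = 0.23). The B6 call of Syn1 was lost without B6 knockout replicate 1 or 2 or wild-type replicate 2 or 3 (-0.89 to -1.17, adjusted p of 0.0582 to 0.157). Markers of germ cells fell in the same B6 knockout arrays: 4 of 8 were lower (Dnd1, Mael, Taf7l and Sycp3) and 0 higher, and the list's summed level was 8927 to 13909 in knockout and 15129 to 16558 in wild type. Over all tested genes 4.53% were lower and 1.65% higher in B6, and 3.5% were higher in 129Sv. In 129Sv the sums were 19752 to 24945 in knockout and 19417 to 19956 in wild type, and 1 of 8 was higher (Dppa3), a call lost with the title number as covariate (adjusted p = 0.133). Their part in the lower Uchl1, Syn1 and L1cam of B6 was not tested, and in whole testes fewer cells of a type and less RNA per cell cannot be told apart.

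The 9 other members tested passed in neither strain, Chga, Sox10 and Ngfr among them. Map2, the dendritic microtubule protein, had 632, 567 and 501 in 129Sv knockout testes against 467, 504 and 496 in 129Sv wild type (0.21, adjusted p = 0.471), and the B6 difference was 0.10 (adjusted p = 0.671). Stmn2, a stathmin of growing neurites, had 20.9, 45.3 and 41.4 in 129Sv knockout testes against 23.2, 27.9 and 33.8 in 129Sv wild type (0.28, adjusted p = 0.743), and 0.09 in B6 (adjusted p = 0.883). Both genes overlapped between genotypes in B6. Ina, the intermediate filament alpha-internexin, had 50.2, 60.7 and 89.7 in B6 knockout testes against 68.4, 114 and 145 in B6 wild type (-0.68, adjusted p = 0.163), and 0.09 in 129Sv (adjusted p = 0.916). Dpysl3, a semaphorin response protein of growth cones, averaged 1691 ± 65.8 in 129Sv knockout and 1848 ± 325 in 129Sv wild type, and 2310 ± 222 in B6 knockout and 2068 ± 300 in B6 wild type (SD, n = 3 each). Ncam1, a homophilic adhesion molecule, averaged 3511 ± 157 in 129Sv knockout and 3638 ± 396 in 129Sv wild type, and 4366 ± 289 in B6 knockout and 4456 ± 66.8 in B6 wild type. The arrays of both genes overlapped between genotypes in both strains. Syt1, the calcium sensor of vesicle release, had 26.3, 18.5 and 18.9 in 129Sv knockout testes against 27.7, 22.0 and 24.4 in 129Sv wild type (-0.23, adjusted p = 0.642), and 0.12 in B6 (adjusted p = 0.764).

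The 11 members below the filter include several that are abundant in differentiated neurons. Stmn3, Elavl3, Dbh, Chgb and Gfap were under 16 on all 12 arrays. Nefl, the light neurofilament chain, ranged from 9.8 to 17.6, Gap43 of growth cones from 9.1 to 16.4 and Elavl4 from 9.2 to 20.2. Dcx, a microtubule protein of migrating neurons, had 9.10, 14.6 and 5.20 in 129Sv knockout testes against 4.80, 4.70 and 6.30 in 129Sv wild type, and 18.8 on B6 knockout replicate 3 alone above the floor. Snap25, a SNARE protein of the synapse, lay on the other side, at 4.70, 8.40 and 8.30 in 129Sv knockout testes against 16.7, 14.4 and 16.8 in 129Sv wild type. In B6 it had 4.70, 5.70 and 2.70 in knockout testes against 10.4, 7.70 and 14.2 in wild type. With no filter on dim probe sets, Snap25 was lower in both strains (-1.21, adjusted p = 0.0288 in 129Sv; -1.31, adjusted p = 0.0259 in B6) and Nefm, the medium neurofilament chain, was lower in 129Sv (-1.60, adjusted p = 0.00328). These are differences between levels around or under the floor, and no other of the 11 passed without the filter.

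Of 31 measured genes of neurons and synapses outside the 28, 19 were tested, and in each strain 1 rose and 2 fell. Over all tested genes 3.5% were higher and 3.66% lower in 129Sv, and 1.65% were higher and 4.53% lower in B6. Elavl2, an RNA-binding protein of neurons that is also used in gonads, rose in both: it had 2462, 2922 and 2287 in 129Sv knockout testes against 1198, 1355 and 1316 in 129Sv wild type (1.98-fold, adjusted p = 0.000492), and rose 1.79-fold in B6 (adjusted p = 0.0021). Kif5a, a neuronal kinesin, fell in both, 2.88-fold in 129Sv (adjusted p = 0.0436) and at least 2.05-fold in B6 (adjusted p = 0.00247). Rbfox3, the antigen of the NeuN antibody, fell 2.95-fold in 129Sv (adjusted p = 0.0368), with a B6 difference of -1.48 that narrowly missed the threshold (adjusted p = 0.0509) and passed under 8 of 26 alternatives. Camk2b fell 1.89-fold in B6 (adjusted p = 0.0404). The calls of Kif5a and Rbfox3 in 129Sv and of Camk2b in B6 were weak: they were lost under 14 of 26, 10 of 26 and 13 of 27 alternatives, single arrays left out among them. The B6 call of Kif5a was lost with values under 16 raised to 16 (-1.04, adjusted p = 0.15), and that of Elavl2 with the mean of its probe sets (0.44, adjusted p = 0.149). The median difference of the 19 was -0.01 in 129Sv and 0.05 in B6, beside -0.0062 and 0.032 over all tested genes. The summed level of the 31 was higher on every knockout array, at 13486 to 14874 in 129Sv knockout testes and 12130 to 13079 in 129Sv wild type, and at 12299 to 13986 in B6 knockout testes and 11373 to 11731 in B6 wild type. Elavl2, within that sum, averaged 2557 ± 328 in 129Sv knockout and 1290 ± 81.9 in 129Sv wild type, and 1212 ± 195 in B6 knockout and 671 ± 13.9 in B6 wild type (SD, n = 3 each). The glutamate and GABA markers Slc17a6, Slc32a1, Gad1 and Gad2 and the cholinergic marker Chat were under 16 on all arrays.

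Of 23 measured genes of neural progenitors, 13 were under 16 on all arrays, Sox1, Pax6, Neurog1, Neurog2, Neurod1 and Olig2 among them, and 9 were tested. In 129Sv knockout testes 4 of the 9 rose and none fell, where 3.5% of all tested genes were higher and 3.66% were lower. Sox3, a transcription factor of neural progenitors that is also known in spermatogonia of the mouse, had 302, 204 and 101, against 23.6, 23.0 and 25.8 in 129Sv wild type (7.63-fold, 2.93 ± 0.33, adjusted p = 0.000126). Zic2, a zinc finger factor of the neural plate, rose 3.44-fold (adjusted p = 0.000549), and the Notch ligands Dll1 and Dll3 rose 2.61-fold (adjusted p = 0.000432) and at least 1.95-fold (adjusted p = 0.0161). In B6 knockout testes 3 rose and 1 fell, where 1.65% and 4.53% of all tested genes did: Dll1 rose 1.61-fold (adjusted p = 0.0431), Fabp7 1.60-fold (adjusted p = 0.0484) and Olig1 at least 1.15-fold (adjusted p = 0.00136), and Msi1 fell 1.47-fold (adjusted p = 0.039). In B6 the calls of Dll1, Fabp7 and Msi1 were lost under 17 of 26, 17 of 26 and 13 of 27 alternatives, and that of Olig1 with values under 16 raised to 16 (0.20, adjusted p = 0.3). Olig1 reached the filter through the B6 knockout arrays alone. The B6 count higher includes it and cannot be weighed against the share over all genes. The title number as covariate ended the Dll3 call in 129Sv (0.79, adjusted p = 0.348), and it was lost without knockout replicate 1 or wild-type replicate 1 or 3. The median difference of the 9 was 0.50 in 129Sv and 0.21 in B6, beside -0.0062 and 0.032 over all tested genes. The list's summed level was 1373 to 1785 in 129Sv knockout testes and 1167 to 1244 in 129Sv wild type, and 768 to 888 in B6 knockout testes and 866 to 1053 in B6 wild type.

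Tissues that can adhere to a dissected testis, and cell types of the testis itself, were read through their own markers, given here beside the members. Of 5 adrenal cortex markers, Cyp11b2 was under 16 on every array, and the other 4 reached 16 on every array, wild type included. Which cells gave these signals was not tested. Of the 4, all tested, 0 passed in either strain. In each strain 1 had an unadjusted p under 0.05, beside 2645 of all 12726 genes tested in 129Sv and 3088 in B6. Cyp11b1 had 72.4, 224 and 57.6 in 129Sv knockout testes against 69.1, 58.3 and 76.8 in 129Sv wild type. The high array, 129Sv knockout replicate 2, had the lowest S100b and the middle Th value of its group. It also had the highest Slc6a2 and Ap3b2 values of its group. Of 11 skeletal muscle markers, Myod1, Myf5, Acta1 and Ckm were under 16 on every array. Of the 7 tested, Tnni1 passed in 129Sv knockout testes, rising 2.29-fold (adjusted p = 0.00149). None passed in B6, where 6 of the 7 and 3088 of all 12726 genes tested had an unadjusted p under 0.05. For the mean effect over both strains 2 of the 7 were higher (Tnni1 and Tnnt1) and 1 was lower (Myh3). The median difference of the 7 was 0.22 in 129Sv and 0.61 in B6, and the muscle sum was 716 to 780 in 129Sv knockout and 482 to 517 in 129Sv wild type, and 935 to 1332 in B6 knockout and 677 to 1013 in B6 wild type. Of 4 measured mesonephros markers 3 were tested, and 1 of them, Pax8, fell 3.69-fold in 129Sv (adjusted p = 0.00442). The median difference of the 3 was 0.008 in 129Sv and 0.197 in B6. The mesonephros sum overlapped between genotypes in both strains. It was 892 to 1378 in 129Sv knockout and 774 to 1030 in 129Sv wild type, and 1349 to 1534 in B6 knockout and 1096 to 1482 in B6 wild type. No endothelial, macrophage or fetal Leydig cell marker passed in either strain. Among 9 Sertoli cell markers, Cst9 fell 2.30-fold in 129Sv and 2.54-fold in B6. With the title number as covariate the calls of Tnni1 and Pax8 were lost (adjusted p of 0.0735 and 0.0951). The Sertoli cell sum was 18551 to 21928 in 129Sv knockout and 23497 to 25698 in 129Sv wild type, the fetal Leydig cell sum 13693 to 15421 in knockout and 17004 to 17775 in wild type, and the endothelial sum 1007 to 1262 in knockout and 1355 to 1468 in wild type, all lower on every 129Sv knockout array. In B6 the Sertoli cell sum (22749 to 26986 in knockout, 25116 to 25804 in wild type) overlapped between genotypes. The B6 fetal Leydig cell sum did too (18408 to 25111 in knockout, 16868 to 20052 in wild type). The B6 endothelial sum was higher on every knockout array, at 1716 to 1809 against 1459 to 1658 in wild type. The part of any of these lists in the members' differences was not tested.

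**Figure D4:**
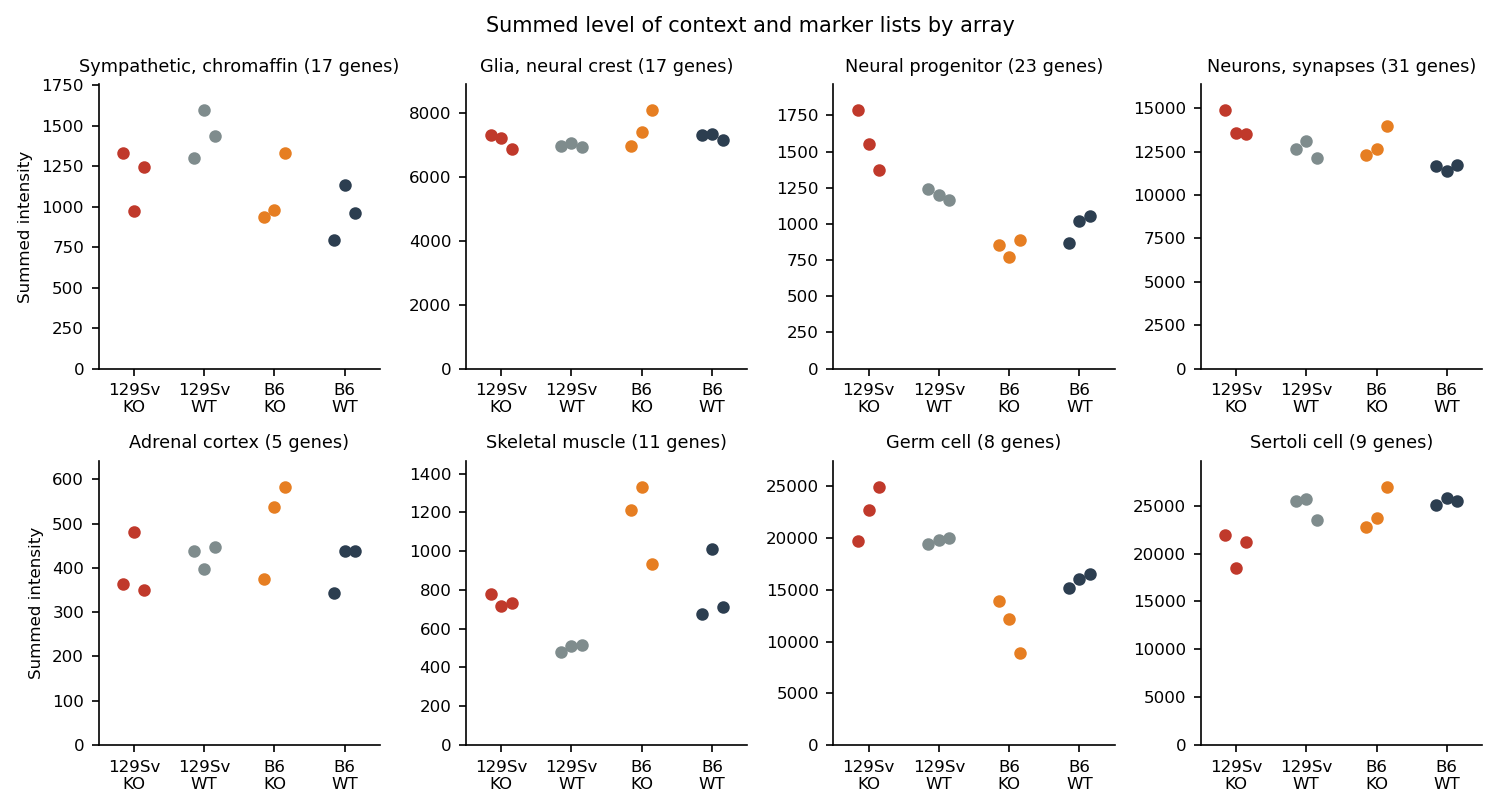
Summed intensity per array of 8 lists of genes outside the 28 members, from 0, in 129Sv knockout, 129Sv wild type, B6 knockout and B6 wild type. The sympathetic and glial sums overlap between knockout and wild type in both strains, the neural progenitor sum is higher on all 129Sv knockout arrays (1373 to 1785) than in 129Sv wild type (1167 to 1244), and the germ cell sum is lower on all B6 knockout arrays.

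None of the 17 tested members passed the test of a difference between the knockout effects of the strains, by limma with Benjamini-Hochberg adjustment, where 0.503% of all tested genes did. At an unadjusted p under 0.05 there were 5 (Th, S100b, Ngfr, Syn1 and Ap3b2), beside 2018 of all 12726 genes tested. For the mean effect over both strains 5 members were higher (Ap3b2, Nfasc, Tubb3, Th and S100b) and 2 were lower (L1cam and Uchl1). Of all tested genes 5% were higher and 7.28% were lower. Both counts of 5 include Th and S100b, which reached the filter wholly or mainly through the knockout arrays of a single strain. These counts cannot be weighed against the values over all genes.

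The strains themselves differed for several members, in comparisons that use the same arrays as the knockout comparisons. In wild-type testes 3 of the 17 were higher in 129Sv than in B6 (Ina, Chga and Sox10) and 1 was lower (Ncam1), where 10.3% of all tested genes were higher and 4.84% were lower. Ina had 209, 221 and 197 in 129Sv wild type against 68.4, 114 and 145 in B6 wild type (2.01-fold, 1.00 ± 0.27, adjusted p = 0.026), and Chga was 2.27-fold higher (adjusted p = 0.0388). Sox10 was 1.85-fold higher in 129Sv wild type (0.89 ± 0.19, adjusted p = 0.00837). Ncam1 was 1.23-fold lower (-0.30 ± 0.09, adjusted p = 0.0395). The calls of Ina and Chga were lost without any 1 of the 129Sv wild-type arrays or without B6 wild-type replicate 1 or 2, and that of Ncam1 under 10 of 27 alternatives. With the title number as covariate Ina, Chga and Sox10 kept their direction without passing (adjusted p of 0.109, 0.103 and 0.0558). In knockout testes 9 were higher in 129Sv and 5 were lower, where 19.6% of all tested genes were higher and 13% were lower. The 9 include Th and S100b, which reached the filter wholly or mainly through the 129Sv knockout arrays. That count cannot be weighed against the share over all genes. Those higher in 129Sv knockout testes included Ina (3.43-fold, adjusted p = 0.000362), Syn1 (2.57-fold, adjusted p = 0.00185), Ap3b2 (1.92-fold, adjusted p = 0.0139) and S100b (at least 3.13-fold, adjusted p = 0.000301). Those lower included Syt1 (1.64-fold, adjusted p = 0.0187), Ngfr (1.55-fold, adjusted p = 0.00893) and Dpysl3 (1.36-fold, adjusted p = 0.0254).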

How the data were processed

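RNA of 12 mouse testis samples was hybridised to Affymetrix arrays of 45101 probe sets. The deposited intensity values were made by the authors with GCRMA, a method of background correction, quantile normalisation and summary over probes that the submitters' processing notes name. No version of it is given in the sources used here, and the files name no genome build. Values were linear, so log2 was taken here with no pseudocount. Groups and replicate numbers came from the sample descriptions. The platform annotation gave 34958 probe sets 1 gene, 932 several and 9211 none; only the first kind was named, 13 array controls carrying a gene name were left out, and 0 symbols needed updating through RefSeq. Some listed genes were not analysed here.

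Probe sets with log2 of at least 4 on at least 3 arrays, 21900 in all, were fitted with limma 3.58.1 in R 4.3.3 (1 mean per group, eBayes with trend, 8 residual and 5.8 prior degrees of freedom). Benjamini-Hochberg adjustment ran over all of them, with a threshold of 0.05. A gene was counted through its probe set of highest mean. Errors of log2 differences are standard errors. Folds against a group below 16 were computed against 16, as "at least". Arrays have no read depth, and with 3 per group their number limits the precision.

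The fit was tested on simulated data with 200 of 21900 probe sets changed. For the 129Sv comparison it found 18%, 56%, 98% and 100% of changes of 0.5, 1, 2 and 4 on the log2 scale, and for B6 14%, 62%, 94% and 100%. Among the calls, 6.85% were false in 129Sv and 4.26% in B6. Promoter windows of 300 bases came from RefSeq (GRCm38.p6), for 20 of the 28 members.

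The members, context lists and cell type markers were chosen with earlier results of these data known. All members were described; of the lists, genes past the threshold in either knockout comparison were named, with defining markers of adrenal cortex, muscle and glia and Dmrt1. Alternatives were other filters, scalings, variance models, probe set rules, covariates, blocks and each array left out.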

Additional observations from a re-analysis of the deposited data

Results flagged for a closer look

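Knockout effects differed between the strains for 4 genes of the context and marker lists, tested as the 129Sv effect minus the B6 effect on the log2 scale with limma and Benjamini-Hochberg adjustment over all probe sets. Sox3 differed by 3.10 ± 0.47 (SE, adjusted p = 0.00987), with every 129Sv knockout array above wild type and B6 arrays of both genotypes at 9.8 to 18.4. Slc6a2, the noradrenaline transporter, differed by 1.61 ± 0.29 (adjusted p = 0.0287), and reached the intensity filter through the 129Sv knockout arrays alone. The germ cell markers Taf7l and Sycp3 differed by 1.53 ± 0.25 (adjusted p = 0.0193) and 1.57 ± 0.30 (adjusted p = 0.0449), being lower in B6 knockout testes and not passing in 129Sv. None of the 17 nervous system genes tested passed this test. Groups of 3 arrays are too small for the test of single outlying arrays.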

How the results depend on the processing

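Of 13 calls of member probe sets in the knockout comparisons, 4 held under every alternative run for them: Ap3b2 in both strains, Th in 129Sv and Uchl1 in B6. Of the 17 tested members, the count higher in 129Sv knockout (4) was 2 with a filter at log2 of 6 or with the title number as covariate. The count lower (1) was 3 with no filter, 2 with array weights or the Actb ratio as covariate, and 0 with the title number as covariate or without the 2 arrays of highest Actb ratio. In B6 knockout the count higher (4) was 2 with only the groups compared or with the Actb ratio as covariate, and the count lower (3) kept within 1.5 times under the other settings. For the mean effect, 5 higher became 3 with the filter at 6, and 2 lower became 4 with no filter. For the difference of effects, 0 higher became 2 with values raised to log2 of 4, 4 with array weights and 1 with the Actb ratio as covariate. For 129Sv against B6 wild type, 3 higher became 5 with array weights or without the 2 arrays of highest Actb ratio and 0 with the title number as covariate, and 1 lower became 0 with no filter, median centring, the mean of a gene's probe sets or no variance trend. For 129Sv against B6 knockout, 5 lower became 2 with median centring, which moved the median of all probe sets to 0.101, and 3 with the mean of a gene's probe sets, no variance trend, only the groups compared or without the 2 arrays. The cause was not tested. Leaving out each array in turn gave 4 to 4 higher and 0 to 2 lower in 129Sv knockout, 2 to 4 higher and 2 to 4 lower in B6 knockout, 5 to 5 higher and 2 to 3 lower for the mean effect, and 0 for the difference of effects. For the strains it gave 1 to 4 higher and 0 to 1 lower in wild type, and 7 to 10 higher and 2 to 5 lower in knockout. The 129Sv difference of Uchl1 passed without 129Sv knockout replicate 3 (-0.69, adjusted p = 0.0205).

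Replicate numbers did not pair the samples (r of same-numbered deviations from -0.509 to 0.0466). With the replicate block, 4 members were higher and 1 lower in 129Sv knockout, and 3 were higher and 3 lower in B6 knockout, where Th lost its call (0.78, adjusted p = 0.0609). Titles of B6 knockout and wild-type replicate 1 share their first number, as do those of replicate 2; as a random block it left 4 higher and 3 lower in B6. Rbfox3 in B6 passed under both blocks (adjusted p = 0.0297 by replicate and 0.0432 by title). Members near or under an intensity of 16, such as Th in B6, Snap25 and Nefm, are limited by signal over background. A 3-array group also bounds what can be seen. The fit to simulated data found 18% of changes of 0.5 on the log2 scale in 129Sv and 14% in B6. Only 200 probe sets were changed there, fewer than were called in the real comparisons. These shares therefore hold for that setting and may differ for the real fit.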
